A study of Mus musculus with 3 samples.

Results

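Branched-chain amino acid (BCAA) catabolism is described here through 10 genes in the gastrocnemius muscle of mice. The genes were listed by name for their place in the pathway, with earlier results of these data known. They encode the transaminase (Bcat2), the branched-chain ketoacid dehydrogenase complex (Bckdha, Bckdhb and Dbt), its kinase and phosphatase (Bckdk and Ppm1k), and enzymes of later steps (Ivd, Mccc1, Hibadh and Acadsb). All 10 were measured, among 18193 genes in all, on 15 probe sets (sets of short probes that together read a transcript). The arrays compared 3 groups of male C57BL/6J mice. HF + SFC mice received a high-fat diet (60% kcal fat) to which sodium ferrous citrate (SFC, an iron salt) was added at 0.023% by weight, HF mice the same diet without it, and Control mice a diet with 10% kcal fat. The diets started at 6 weeks of age and lasted 15 weeks, although an age of 21 months stands in the labels. Each group was measured on 1 array, which held a mix of all its samples. The number of mice in a mix is not given in the sources used here.

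Leucine, isoleucine and valine are largely spared by the liver at first and are transaminated in tissues such as skeletal muscle, so muscle has a large part in their turnover. BCAT2 moves the amino group to 2-oxoglutarate in mitochondria, and the resulting ketoacids are committed to oxidation by the branched-chain ketoacid dehydrogenase complex. Phosphorylation by BCKDK turns this complex off and dephosphorylation by PPM1K turns it on. The branches then part: IVD and MCCC1 act on the leucine carbon chain, ACADSB on that of isoleucine and HIBADH on that of valine.

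The authors' values are MAS5 signals on a linear scale, and log2 ratios between arrays were taken from the brightest probe set of each gene. With 1 pooled sample per group there is no replicate error, so no difference here has a test, and a ratio describes these arrays only. In bulk muscle, fewer cells of a type and less RNA per cell cannot be told apart. As a measure of how far a ratio can depend on the probes, the log2 ratios of the brightest and the next brightest probe set differed with an SD of 0.26 for HF against Control and 0.23 for HF + SFC against HF over 2456 genes with both above the 75th percentile of signal. None of the 11 fast fibre and 9 slow fibre markers lay below the array median on any array. The same held for the 7 fibroblast and matrix and the 5 endothelial markers, so this count does not single out muscle. The summed signal of the fast fibre markers was 547055 in HF + SFC, 464811 in HF and 509783 in Control. The summed signal of the slow fibre markers was 94642 in HF + SFC, 74080 in HF and 101870 in Control. That of 6 adipocyte markers was 29549, 32933 and 23051 in the same order, with leptin below the array median in Control alone. Fabp4 by itself gave 25306, 26497 and 21626 of these, so the adipocyte sum mostly follows that marker. The 3' to 5' ratio of the beta-actin control probe sets, a sign of RNA integrity, was 1.15 in HF + SFC, 1.52 in HF and 1.09 in Control, and that of Gapdh was 0.820, 0.832 and 0.842.

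The first comparison asked how the high-fat diet related to the pathway. In HF muscle, 9 of the 10 genes had a lower signal than in Control muscle, and Dbt alone had a higher one. A lower signal was also found for 8970 of all 18193 genes and 3765 of the 6707 genes above the 75th percentile of signal. The median log2 ratio of HF to Control was -0.30 (a ratio of 0.811) over the 10 genes, against 0.01 over all 18193 genes and -0.03 over the 6707 genes above the 75th percentile of signal. The largest differences were those of Ivd and Ppm1k, at ratios of 0.614 and 0.664. These 2 genes were the members at least 1.5-fold lower, as were 12.2% of all genes. No member was at least 1.5-fold higher, as were 17.0% of all genes. Ppm1k passed narrowly, at 1.505-fold. Its log2 ratio of HF to Control fell short after quantile normalization (-0.582) and subtraction of the median ratio of genes of like signal (-0.55). It also fell short with an offset before the log2 (-0.56), the mean of its probe sets (-0.46) and the next brightest one (-0.33). With arrays centred on their medians it passed (-0.67), and Ivd passed under each of these settings. Since dim genes pass such a fold often, a 1.2-fold difference was also counted among the 6707 bright genes, which hold 9 members (all but Bcat2). Of these 9, Ivd, Ppm1k, Acadsb, Mccc1 and Bckdhb were at least 1.2-fold lower in HF, against 11.2% of the bright genes, and none was at least 1.2-fold higher, against 9.12%.

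**Figure D1:**
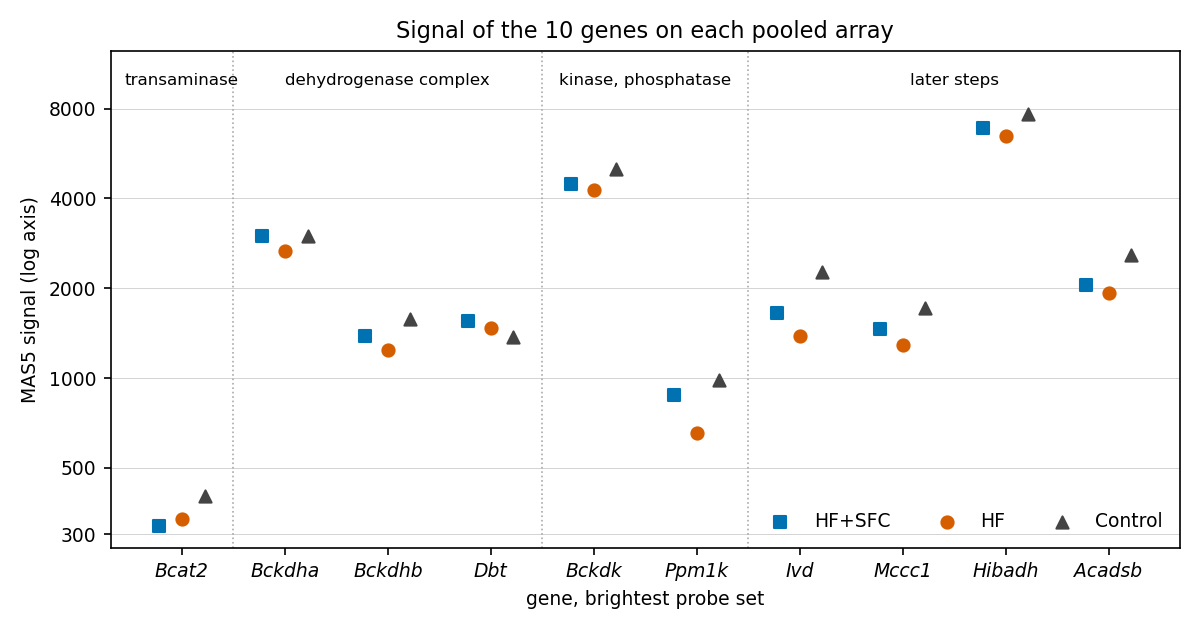
MAS5 signal (log axis) of the brightest probe set of each of the 10 genes on the HF + SFC, HF and Control arrays, with 1 pooled sample per array and no error bars. HF lay below Control for every gene but Dbt, and the distance was widest for Ivd (1388 in HF and 2261 in Control).

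The transaminase and the complex differed less than Ivd and Ppm1k did. Bcat2, the mitochondrial branched-chain aminotransferase, had a signal of 319 in HF + SFC, 337 in HF and 404 in Control, so that both high-fat arrays lay below Control. Bckdha, the alpha subunit of the decarboxylase component, had 2986, 2665 and 2990 in the same order, with HF the lowest array and the remaining arrays nearly equal. Bckdhb, its beta subunit, had 1385 in HF + SFC, 1247 in HF and 1583 in Control, a log2 ratio of HF to Control of -0.34. Dbt, the core that transfers the acyl group, ran the other way, with 1555 in HF + SFC, 1469 in HF and 1378 in Control. The log2 ratio of HF to Control was -0.17 for Bckdha, -0.34 for Bckdhb and 0.09 for Dbt, and those of Bckdha and Dbt were below the SD of 0.26 between probe sets. Dbt has a single probe set, and its ratio was 0.01 with arrays centred on their medians. Of these, 5.71% of the bright genes had a ratio as low as that of Bckdhb and 22.6% as low as that of Bckdha, while 26.9% had one as high as that of Dbt.

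Both regulators of the complex were lower in HF, by different amounts. Bckdk, the inactivating kinase, had a signal of 4484 in HF + SFC, 4276 in HF and 5024 in Control, a ratio of HF to Control of 0.851. Ppm1k, the activating phosphatase, had 881 in HF + SFC, 656 in HF and 988 in Control, a ratio of 0.664. On the log2 scale these ratios were -0.23 for the kinase and -0.59 for the phosphatase. That of the kinase was within the SD of 0.26 between probe sets. The other probe sets gave -0.06 for the kinase and -0.33 for the phosphatase. A ratio as low as that of Ppm1k was found for 70 of the 6707 bright genes (1.04%).

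Among the 10 genes, those of the later steps held most of the larger differences. Ivd, which oxidises isovaleryl-CoA from leucine, had a signal of 1658 in HF + SFC, 1388 in HF and 2261 in Control, and only 33 of the 6707 bright genes (0.492%) had a ratio of HF to Control as low as its log2 value of -0.70. Mccc1, the biotin-carrying subunit of methylcrotonyl-CoA carboxylase and the next enzyme of the leucine branch, had 1466 in HF + SFC, 1287 in HF and 1715 in Control. Acadsb, which oxidises the short branched-chain acyl-CoA from isoleucine, had 2044, 1926 and 2592 in the same order. Both high-fat arrays lay below Control for each of these genes. The log2 ratio of HF to Control was -0.41 for Mccc1 and -0.43 for Acadsb, as low as in 3.22% and 2.98% of the bright genes. Hibadh, which oxidises hydroxyisobutyrate from valine, differed less, with 6865 in HF + SFC, 6492 in HF and 7683 in Control and a ratio of HF to Control of 0.845. Its log2 ratio of -0.24 was within the SD of 0.26 between probe sets, and its other probe set gave -0.01.

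**Figure D2:**
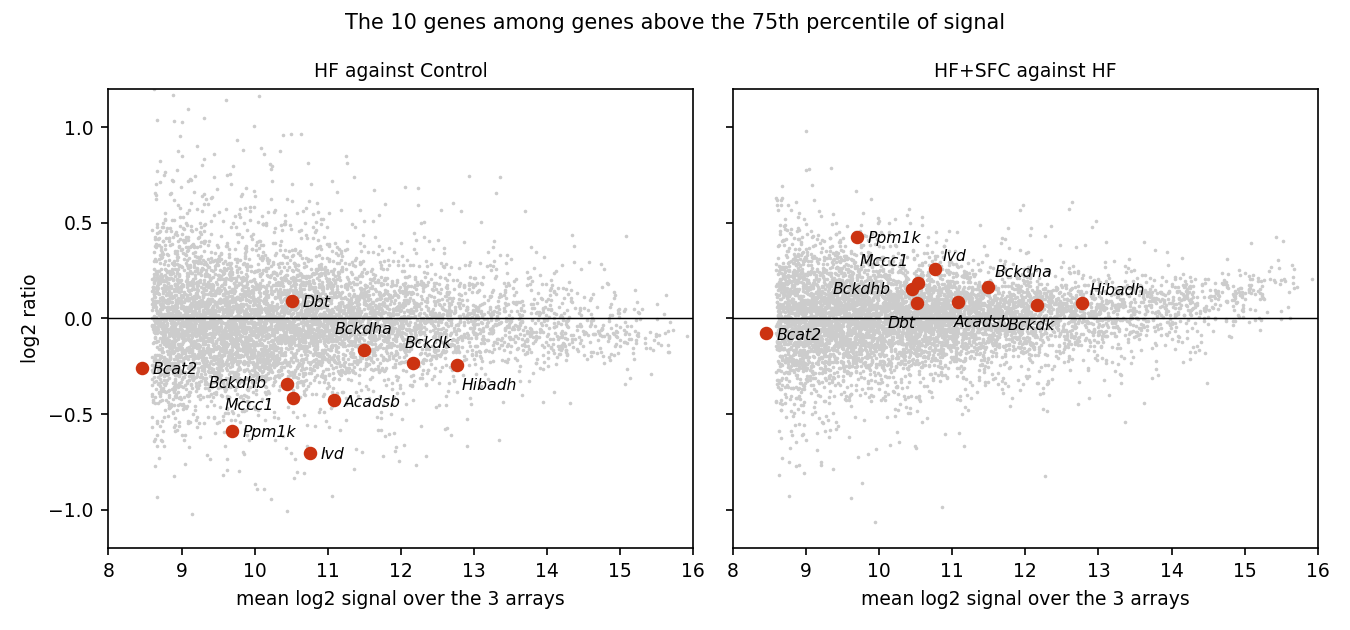
Log2 ratio of HF to Control (left) and of HF + SFC to HF (right) against the mean log2 signal over the 3 arrays. Grey points are the genes above the 75th percentile of signal (13 of 6707 on the left and 3 on the right lie outside the axis) and red points the 10 genes, of which Ivd (-0.70) and Ppm1k (-0.59) sat at the lower edge on the left and Ppm1k (0.43) near the upper edge on the right.

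The sequence before the start of the 4 genes with the lowest ratios of HF to Control is shown, as these are the members on which the comparison turns. Each stretch runs 5' to 3' on the gene's strand, comes from the RefSeq promoter table of build GRCm38.p6 and ends just before the annotated gene. Capitals mark the letters CCAAT or their reverse complement ATTGG, the core of the CCAAT box that the factor NF-Y binds. The stretches are chr2:118861744-118861958 on the plus strand for Ivd, chr6:57535553-57535737 on the minus strand for Ppm1k, chr7:131410351-131410600 on the plus strand for Acadsb and chr3:36000695-36000928 on the minus strand for Mccc1.
Ivd: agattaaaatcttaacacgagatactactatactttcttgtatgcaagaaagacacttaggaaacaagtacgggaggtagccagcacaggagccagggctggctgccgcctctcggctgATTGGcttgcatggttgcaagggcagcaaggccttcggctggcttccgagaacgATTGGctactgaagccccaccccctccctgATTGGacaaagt
Ppm1k: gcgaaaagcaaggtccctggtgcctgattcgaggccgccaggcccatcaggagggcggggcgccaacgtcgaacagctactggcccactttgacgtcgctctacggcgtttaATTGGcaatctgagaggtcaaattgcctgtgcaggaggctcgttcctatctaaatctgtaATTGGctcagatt
Acadsb: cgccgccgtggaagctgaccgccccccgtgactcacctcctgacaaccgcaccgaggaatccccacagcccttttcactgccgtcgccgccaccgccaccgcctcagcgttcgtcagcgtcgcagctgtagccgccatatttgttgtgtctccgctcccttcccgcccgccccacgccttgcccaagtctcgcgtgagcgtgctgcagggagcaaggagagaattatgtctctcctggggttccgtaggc
Mccc1: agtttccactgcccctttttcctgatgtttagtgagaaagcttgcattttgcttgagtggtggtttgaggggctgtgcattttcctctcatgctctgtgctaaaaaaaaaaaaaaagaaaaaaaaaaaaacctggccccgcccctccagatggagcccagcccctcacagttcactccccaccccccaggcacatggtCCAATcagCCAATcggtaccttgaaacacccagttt

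The letters CCAAT occurred 3 times in the Ivd stretch, 2 times in that of Ppm1k, 2 times in that of Mccc1 and not at all in that of Acadsb, which has the highest share of G and C of the 4 (65.6%). In windows of 300 bases, from 250 before to 50 after a start, 9 members had a sequence, in 11 windows, and CCAAT was found on either strand in 7 of these windows (6 members), against 37.4% of 32851 windows of all genes. Windows with 3 or more copies made up 3.37% of all windows and 2 of the 11, those of Ivd and Mccc1. The GC box GGGCGG was found in 5 of the 11 windows (35.7% of all windows) and the nuclear receptor half-site AGGTCA in 3 (16.3%). The longer element TCAAGGTCA of the estrogen-related receptors, which contains that half-site, was found in 0 of the 11 (0.423% of all windows). All motifs were searched on both strands. These counts describe letters in the windows and were not linked to the arrays.

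Other markers moved in the same comparison. The median log2 ratio of HF to Control was -0.45 for slow fibre markers (all 9 lower) and -0.14 for fast fibre markers (all 11 lower). It was 1.51 for adipocyte markers (all 6 measured higher), 0.44 for fibroblast and matrix markers (all 7 higher, or 5 of 7 with arrays centred on their medians) and 0.31 for leukocyte markers (6 of 7 higher). With quantile normalization the fast fibre median was -0.07, with 8 lower and 1 higher, and Myh1 was also higher after subtraction of the median ratio of genes of like signal. Endothelial markers had a median of 0.04 (3 of 5 higher). The part of fibre type, of other cells and of the higher 3' to 5' ratio of beta-actin in HF (1.52) in the values of the 10 genes was not tested.

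The second comparison asked how iron added to the high-fat diet related to the same genes. In HF + SFC muscle, 9 of the 10 genes had a higher signal than in HF muscle, and Bcat2 alone had a lower one. A higher signal was also found for 9346 of all 18193 genes and 3605 of the 6707 bright genes. The differences were small, with a median log2 ratio of 0.12 (a ratio of 1.09), against 0.01 over all genes and 0.02 over the bright genes. Ppm1k had the largest ratio at 1.34 (881 in HF + SFC and 656 in HF), followed by Ivd at 1.19 and Mccc1 at 1.14. The HF array enters both this comparison and the one with Control, so these comparisons are not independent and a low reading there would enter both.

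Set against HF, no member passed 1.5-fold in HF + SFC on the higher side (13.7% of all genes) or on the lower side (13.5%). Among the 9 bright members, Ppm1k was the only one at least 1.2-fold higher, against 5.87% of the bright genes, and none was at least 1.2-fold lower, against 6.01%. Ivd fell just short, at a ratio of 1.194. On the other probe sets of these genes, Ivd passed 1.2-fold (1.32) and Ppm1k did not (1.19). A log2 ratio as high as that of Ppm1k (0.43) was found for 93 of the 6707 bright genes (1.39%), and one as high as that of Ivd (0.26) for 419 (6.25%). The other 7 genes with a higher signal had log2 ratios from 0.07 for Bckdk to 0.19 for Mccc1. All of these were below the SD of 0.23 by which 2 probe sets of 1 gene differed in this comparison. Slow fibre markers had a median log2 ratio of 0.40 (all 9 higher) and fast fibre markers 0.22 (all 11 higher, or 7 higher and 2 lower after quantile normalization), adipocyte markers had -0.59 (5 of 6 lower). Fibroblast and matrix markers had -0.11 (5 of 7 lower) and leukocyte markers -0.01, and the part of these in the values was not tested.

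The third comparison set HF + SFC muscle against Control muscle. In HF + SFC, 9 of the 10 genes were lower than in Control, with Dbt higher, as were 8664 of all 18193 genes and 3424 of the 6707 bright genes lower. The median log2 ratio of the 10 genes was -0.18 (a ratio of 0.884), against 0.02 over all genes and 0.00 over the bright genes. The lowest ratio was that of Ivd (1658 in HF + SFC and 2261 in Control, 0.733), then those of Acadsb at 0.789 and Bcat2 at 0.791. Ppm1k and Bckdk had ratios of 0.892 and 0.893, and Bckdha had 0.998, a difference whose sign turned after quantile normalization. No member was at least 1.5-fold lower (12.4% of all genes) or higher (16.5%). Ivd and Acadsb were at least 1.2-fold lower among the 9 bright members, against 8.72% of the bright genes, and none was at least 1.2-fold higher, against 7.02%. In this comparison the median log2 ratio was 1.23 for adipocyte markers (5 of 6 higher), 0.42 for fibroblast and matrix markers (all 7 higher) and 0.30 for leukocyte markers (all 7 higher). It was -0.05 for slow fibre markers (6 of 9 lower) and 0.10 for fast fibre markers (all 11 higher, or 7 higher and 4 lower with arrays centred on their medians, and 5 higher and 3 lower after quantile normalization). The part of these in the values was not tested.

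**Figure D3:**
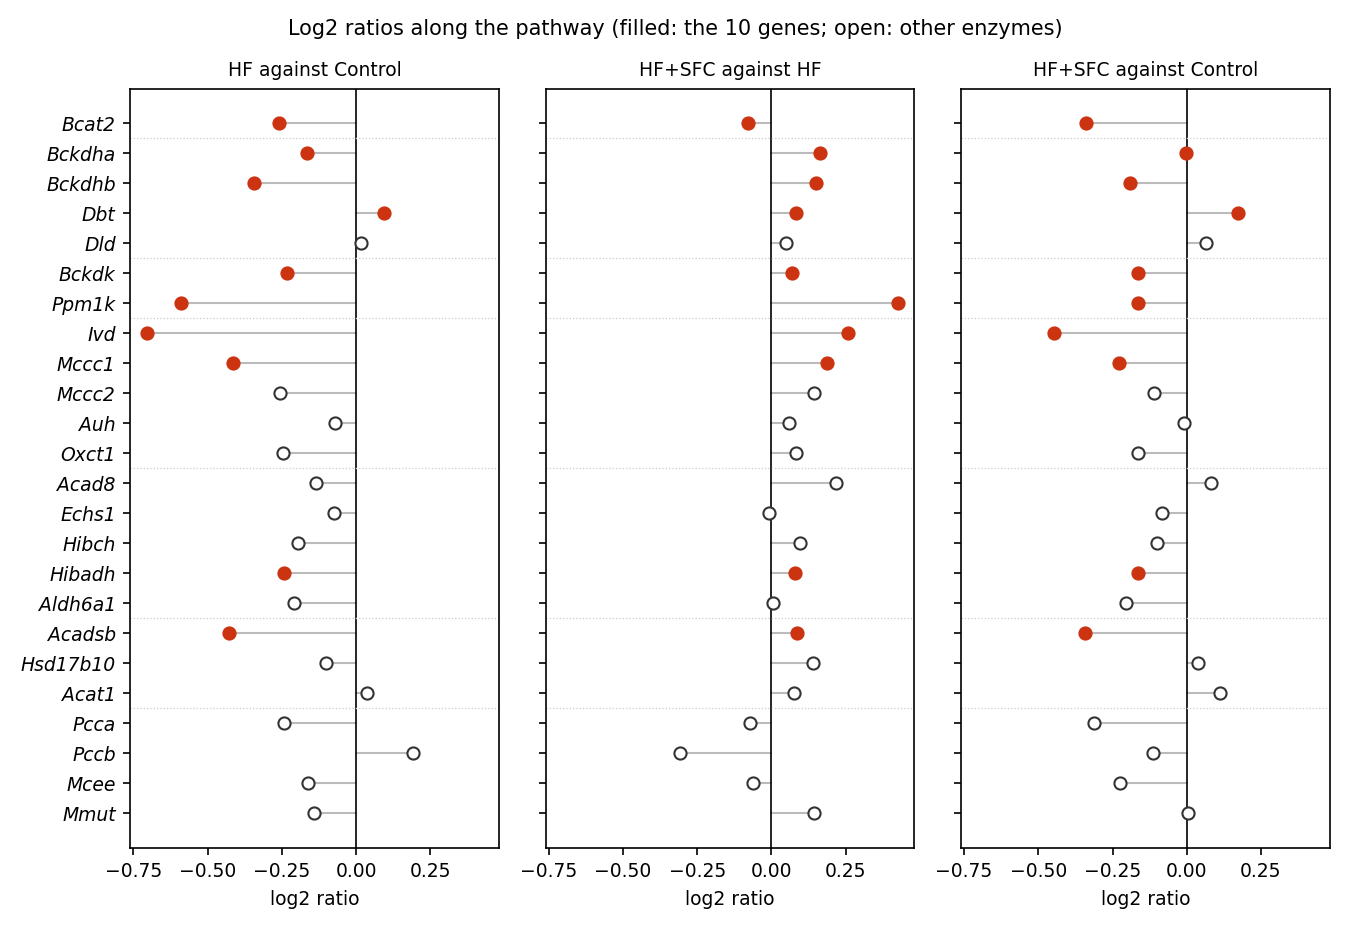
Log2 ratio of the brightest probe set of each enzyme, from transaminase (top) through the complex, its regulators and the leucine, valine and isoleucine branches to the propionyl-CoA steps (bottom), in the 3 comparisons. Filled points are the 10 genes and open points other enzymes of the pathway above the median signal. On the left, Ivd (-0.70), Ppm1k (-0.59), Acadsb (-0.43) and Mccc1 (-0.41) lay farthest below 0.

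How far these values depend on the probes was checked on the 5 members with 2 probe sets. Ivd was lower in HF than in Control on both, and its other probe set gave 1477 in HF + SFC, 1118 in HF and 1905 in Control, a ratio of HF to Control of 0.587. Ppm1k was also lower on both, at 191 in HF + SFC, 160 in HF and 201 in Control on the dimmer one, which was nearer to the array medians of 68.0, 67.4 and 63.6. For these 2 genes the order of the 3 arrays was the same on both probe sets. Mccc1 kept its ratio of HF to Control (0.751 on the brightest and 0.748 on the other), but the other probe set read 140 in HF + SFC and 167 in HF and so turned the sign of that difference. Bckdk and Hibadh had values nearer to 1 for HF against Control on the other probe set (0.958 and 0.993). On it both had less signal in HF + SFC, with 1080 against 1190 in HF for Bckdk and 3851 against 4423 in HF for Hibadh. With the next brightest probe set, HF + SFC exceeded HF for 6 of the 10 genes in place of 9, and the count of genes higher in HF than in Control stayed at 1. Acadsb has a single probe set, of a kind that can bind several transcripts, and the brightest of Hibadh is of such a kind too.

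**Figure D4:**
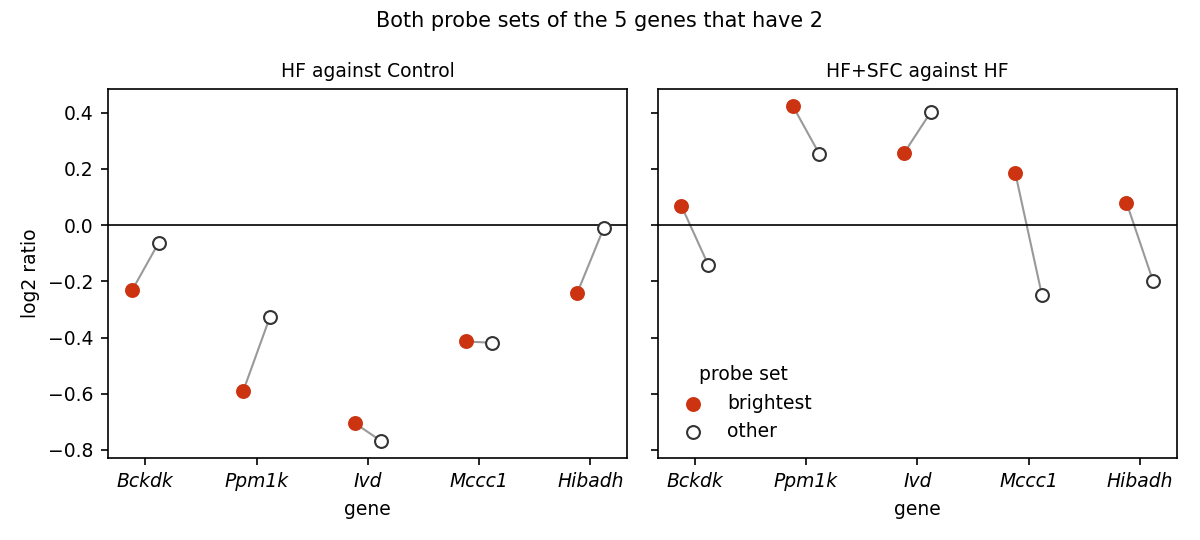
Log2 ratio of HF to Control (left) and of HF + SFC to HF (right) on the brightest (filled) and the other (open) probe set of the 5 genes with 2. Both probe sets lay below 0 for every gene on the left, whereas on the right those of Bckdk, Mccc1 and Hibadh lay on opposite sides of 0.

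The other enzymes of the pathway had medians nearer to 0 than the 10 genes. Members and lists were chosen with earlier results of these data known, and the part of that choice in this contrast was not tested. Of 15 measured, 14 had a signal above the median, and 11 of these had a log2 ratio of HF to Control below 0, with a median of -0.14. None of the 14 was at least 1.2-fold lower in HF (11.2% of the bright genes) or higher (9.12%), with Mccc2 the nearest at 1.19-fold lower. In HF + SFC against HF, 10 of the 14 were higher (median 0.07). Pccb was the only one past 1.2-fold, on the lower side, against 6.01% of the bright genes. With arrays centred on their medians, which moved all ratios of HF to Control down by 0.08, 13 of the 14 were lower in HF. The fifteenth, Bcat1, the cytosolic transaminase, was near or below the array medians, at 27.8 in HF + SFC, 83.7 in HF and 78.9 in Control.

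Mccc2, the partner subunit of Mccc1, had 1029 in HF + SFC, 931 in HF and 1111 in Control, so that HF over Control was 0.838, while its 2 dimmer probe sets gave 1.02 and 1.26. Auh, which hydrates the next intermediate of leucine, had 2626, 2518 and 2644 in the same order. Oxct1, which activates ketone bodies, had 16149 in HF + SFC, 15259 in HF and 18108 in Control, although HF was the highest array on its dimmest probe set. All 3 measured genes of the leucine branch outside the members thus read lowest in HF on the brightest probe set, by less than Ivd or Mccc1.

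In the valine branch all 4 other enzymes were lower in HF than in Control. Acad8, which oxidises isobutyryl-CoA, had 1164 in HF + SFC, 1002 in HF and 1100 in Control, and Hibch, a hydrolase acting just before Hibadh, had 1887, 1765 and 2022. For both, a dimmer probe set gave a higher signal in HF than in Control. Aldh6a1, which follows Hibadh, had 8325 in HF + SFC, 8303 in HF and 9591 in Control, and Echs1, shared with fatty acid oxidation, had 4879, 4907 and 5171. In the isoleucine branch Hsd17b10 had 3463 in HF + SFC, 3146 in HF and 3376 in Control, with HF highest on its other probe set, and the thiolase Acat1 had 10298, 9774 and 9520. Dld, the component that the complex shares with other dehydrogenases, had 5670 in HF + SFC, 5479 in HF and 5417 in Control, a difference as small as that of Acat1, and both turned sign in HF against Control once arrays were centred on their medians.

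The acyl-CoA dehydrogenases, a family to which Ivd and Acadsb belong, did not share a direction in HF. Those of branched-chain acyl-CoA, Ivd, Acadsb and Acad8, had log2 ratios of HF to Control of -0.70, -0.43 and -0.14. The 4 that act on straight-chain acyl-CoA from fatty acids all read above Control in HF (median log2 ratio 0.12). Acadl, the long-chain enzyme, had 22815 in HF + SFC, 22667 in HF and 18470 in Control, and Acadm, the medium-chain enzyme, had 21188, 20385 and 18677. Acads and Acadvl, for short and very long chains, had log2 ratios of HF to Control of 0.11 and 0.09. These, with those of Acadm (0.13) and Acad8, were within the SD of 0.26 between probe sets. The other probe set of Acad8 read higher in HF, at a log2 ratio of 0.25. The direction in HF against Control held for all 4 under each scaling tried, but their median was only 0.03 with arrays centred on their medians. With that scaling Acads and Acadvl turned lower in HF + SFC against Control. The difference between these sets of enzymes was not tested. Acaca and Acacb, which like Mccc1 are biotin-dependent carboxylases, had ratios of HF to Control of 0.778 and 0.797.

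**Figure D5:**
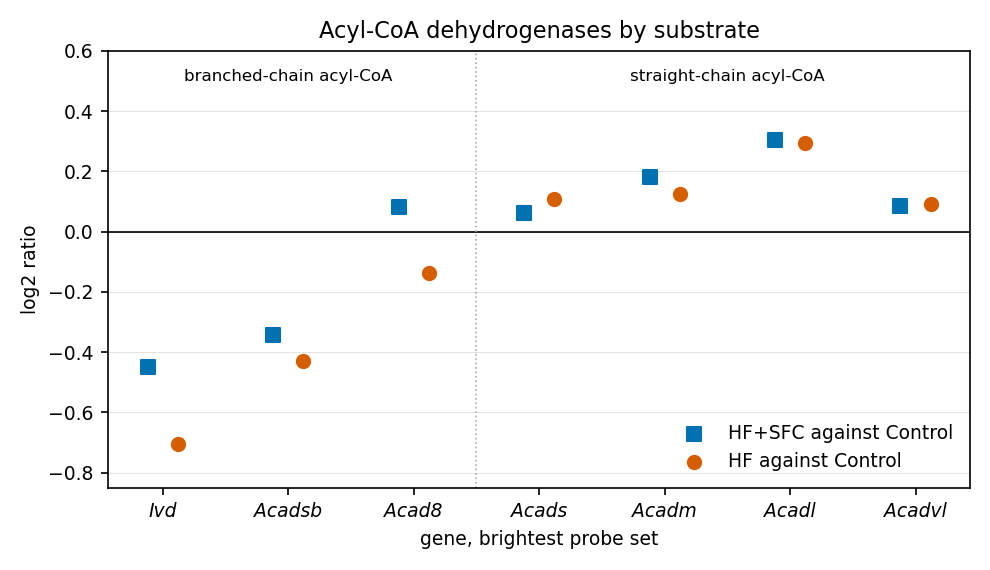
Log2 ratio to Control of the HF + SFC (squares) and HF (circles) signal for 7 acyl-CoA dehydrogenases, on their brightest probe sets. The 3 enzymes of branched-chain acyl-CoA lay below 0 in HF, down to -0.70 for Ivd, and the 4 of straight-chain acyl-CoA above 0 in HF, up to 0.30 for Acadl. In HF, Acad8, Acadm, Acads and Acadvl lay within the SD of 0.26 between probe sets.

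Sister complexes of the branched-chain ketoacid dehydrogenase were set beside it. Of 11 genes of pyruvate dehydrogenase with its kinases and phosphatases, 8 had a ratio of HF to Control under 1, with a median of -0.18 on the log2 scale, and the 2 components specific to 2-oxoglutarate dehydrogenase, Ogdh and Dlst, had ratios of 0.935 and 0.961. Set against HF, 10 of the 11 were higher in HF + SFC, with a median of 0.06 on the log2 scale, as were both Ogdh and Dlst, beside 9 of the 10 members. After subtraction of the median ratio of genes of like signal, 7 of the 11 were higher, and Dlst turned lower. The phosphatases Pdp1 and Ppm1k ran in opposite directions in HF. Pdp1, which activates pyruvate dehydrogenase in muscle, had 3489 in HF + SFC, 3347 in HF and 2629 in Control, a ratio of HF to Control of 1.27, against 0.664 for Ppm1k. The second probe set of Pdp1 gave 1.46 for the same ratio. Pdp2, its dimmer relative, had 198 in HF + SFC, 160 in HF and 208 in Control. Of the kinases, ratios of HF to Control were 0.851 for Bckdk, 0.816 for Pdk2, 0.806 for Pdk4 and 0.822 for Pdk1, although Pdk1 was higher in HF on its next brightest probe set, at a ratio of 1.31. Pdk3 read below the array medians on all 3 arrays, at 21.3 in HF + SFC, 55.7 in HF and 25.7 in Control.

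Genes that move BCAA and their regulators were listed too. Of 6 transporter genes, 5 were lower in HF than in Control, or 4 after subtraction of the median ratio of genes of like signal, which turned Slc7a8. Slc43a1, a plasma membrane carrier of these amino acids, had the lowest ratio, with 323 in HF + SFC, 330 in HF and 421 in Control. Slc25a44, the mitochondrial BCAA carrier, had 730, 721 and 786 in the same order, whereas both of its dimmer probe sets read higher in HF than in Control. Slc7a5, the light chain of the plasma membrane carrier, had 113 in HF + SFC, 155 in HF and 81.7 in Control. Its single probe set read above the array medians of 68.0, 67.4 and 63.6, nearest in Control, and below the 75th percentile of signal. Slc7a5 was the only one of the 31 other genes of the pathway at least 1.5-fold higher in HF, against 17.0% of all genes. Slc3a2, its heavy chain, had 820, 755 and 935 in the same order. Of 26 bright other pathway genes, it was 1 of 4 at least 1.2-fold lower in HF (11.2% of the bright genes). The others were Gpt, Klf15 and Ppara, and only Gpt2 was at least 1.2-fold higher (9.12% of the bright genes).

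Klf15, a transcription factor that drives BCAA catabolism in mouse muscle, had 1056 in HF + SFC, 1114 in HF and 1567 in Control, a ratio of HF to Control of 0.711. Ppara, the fatty acid receptor, had 520 in HF + SFC, 577 in HF and 736 in Control. Ppargc1a, the coactivator also known as PGC-1 alpha, had 1803, 2515 and 2991 in the same order, and this order of the arrays was found on all 5 of its probe sets. Prdm16 was dim, at 176, 186 and 178. In HF + SFC against HF all 4 regulators listed were lower on their brightest probe sets (median log2 ratio -0.11). Those of Klf15 (-0.08), Prdm16 (-0.08) and Ppara (-0.15) were within the SD of 0.23 between probe sets. The dimmest probe set of Ppara was higher, as were dimmer ones of Prdm16 (log2 ratios 0.33 and 1.63), though not its dimmest. On their brightest probe sets, 9 of the 10 members were higher. Over all 31 other genes of the pathway, 23 read lower in HF than in Control (median -0.16, or -0.08 with the mean of all probe sets and -0.24 with arrays centred on their medians). In HF + SFC against HF, 17 of them were higher (median 0.02, or -0.06 with the mean of all probe sets).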

How the data were processed

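Gastrocnemius muscle RNA of 3 groups was measured on 3 Affymetrix GeneChip Mouse Genome arrays of biotinylated cRNA, made from 100 ng of total RNA per the labels. The deposited values are linear intensities, which the submitters' processing notes credit to MAS5. With 2% of the probe sets trimmed from either end, every array had a mean of 500.0. The version of MAS5 is not given in the sources used here, and no detection calls were used. The arrays held 45101 probe sets. A single gene symbol was given for 34945, several for 932 and none for 9160, and 64 were controls. Gene IDs of 34741 probe sets were found in the RefSeq gene table, from which current symbols were taken. Of the genes listed, 4 were not analysed here.

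Log2 ratios were taken without an offset from the probe set with the highest mean log2 signal. Bright genes are those whose mean lies above the 75th percentile of all probe sets. With a lone pooled sample in each group, no test was possible, and counts and medians stand beside those of all genes. The number of arrays limits the precision. The members, the lists and the thresholds were chosen with earlier results of these data known. Named genes were the 10 members and genes from lists written by pathway step (enzymes above the median signal, and otherwise the extremes of a list). Slc3a2, Slc25a44 and Ppara, and the genes named from sister complexes, were chosen after their values were seen. The alternatives were other probe sets, 3 normalizations, an offset of 50, a filter, leaving out of probe sets whose names end in _s_at or _x_at, and other fold thresholds. The steps were tested on simulated data. Python 3.11.15, numpy 2.4.6, pandas 2.3.3 and matplotlib 3.10.9 were used.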

Additional observations from a re-analysis of the deposited data

How the results depend on the processing

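No paired analysis was possible because each group had 1 array. Depth cannot be given for arrays, and with 1 pooled sample per group no value could be set against a spread between samples, so the change of a single gene's value was judged against the SD between probe sets of 1 gene (0.26, 0.23 and 0.22 on the log2 scale for HF against Control, HF + SFC against HF and HF + SFC against Control). That SD is no measure for a median of 10 genes, which over 8 alternatives (a filter on dim genes removed no member and so tested nothing) ranged from -0.39 to -0.26 for HF against Control, from 0.08 to 0.15 for HF + SFC against HF and from -0.28 to -0.17 for HF + SFC against Control. The number of members higher in HF + SFC than in Control was 2 instead of 1 after quantile normalization and after subtraction of the median ratio of the 500 genes nearest in signal, in both cases through Bckdha. In HF + SFC against HF, 6 members in place of 9 were higher with the mean of all probe sets. At a 2-fold threshold, 0 members were lower in HF than in Control. Among bright members, a threshold of 1.5-fold gave 2 lower in HF than in Control, 0 higher in HF + SFC against HF and 0 lower in HF + SFC against Control. Of the 2 lower in HF than in Control, Ppm1k fell short of 1.5-fold after quantile normalization, among other alternatives. Counting any probe set at 1.5-fold gave 1 member lower in HF + SFC than in Control, which was Mccc1 on its dim probe set. Over all genes, those higher and lower in HF than in Control numbered 3096 and 2228 at 1.5-fold, 1939 and 1366 at 2-fold, and 5544 and 4358 with any probe set. In HF + SFC against HF they numbered 2484 and 2462, 1550 and 1532, and 4810 and 4735. In HF + SFC against Control they numbered 3006 and 2265, 1935 and 1359, and 5467 and 4440. With arrays centred on their medians, 369 bright genes were at least 1.2-fold higher and 1386 lower in HF than in Control, against 612 and 753 as deposited, and 228 higher with 1213 lower in HF + SFC against Control, against 471 and 585. The cause of these changes was not tested.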

Other observations

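The last steps, which carry propionyl-CoA from valine and isoleucine to the tricarboxylic acid cycle, held subunits that differed in opposite directions. Pcca, the alpha subunit of propionyl-CoA carboxylase, had a signal of 1940 in HF + SFC, 2037 in HF and 2410 in Control. Pccb, the beta subunit of the same enzyme, had 1761 in HF + SFC, 2179 in HF and 1907 in Control, so that HF was its highest array. The log2 ratios of HF to Control, -0.24 for Pcca and 0.19 for Pccb, were within the SD of 0.26 between probe sets. Pccb has a single probe set. Mcee, the epimerase that follows, had 2974, 3107 and 3475 in the same order, and Mmut, the mutase that ends the route, had 2862 in HF + SFC, 2589 in HF and 2855 in Control.

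Genes that handle the amino group went both ways. Gpt2, the mitochondrial alanine transaminase, had 13405 in HF + SFC, 16456 in HF and 13711 in Control, and HF was the highest array on all 4 of its probe sets. Gpt, the cytosolic form, had 546 in HF + SFC, 559 in HF and 682 in Control. Got1 and Got2, the aspartate transaminases, had ratios of HF to Control of 0.835 and 0.858. Glud1, which releases ammonium from glutamate, had 3475 in HF + SFC, 3390 in HF and 3820 in Control. Glul, which makes glutamine, had 9758 in HF + SFC, 9773 in HF and 9031 in Control, while its other probe set had 2417, 2382 and 2461.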
